A study of Homo sapiens with 26 samples.

Results

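The regions described carried an H3K27ac peak in every library of one line and in no library of the other. Peaks of 10 H3K27ac lists merged into 87570 regions. Of these, 158 were called in all 4 lists of the RAD21 line and in none of the 6 lists of the parental line (RAD21-only), and 186 were called in all 6 parental lists and in none of the 4 lists of the RAD21 line (WT-only). The sets hold 0.180% and 0.212% of the merged regions. They hold 0.704% of the 22451 regions called in all 4 RAD21-line lists and 0.906% of the 20532 called in all 6 WT lists. The calls themselves chose the members, so their presence in one line and absence from the other is not a finding, and the strength of their peaks is given as a description with no test.

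The lists come from ChIP-seq of 2 cell lines. HCT116 (WT) is a human colorectal cancer line with wild-type p53. The label HCT116_RAD21 stands, according to the study's methods, for HCT116-RAD21-mAC, an HCT116 derivative in which RAD21 carries an auxin-inducible degron, so that an auxin analogue removes the protein. WT cells received DMSO (Nut 0 h) or 10 µM Nutlin-3a, which frees p53 from HDM2, for 1 h or 10 h, and the RAD21 line received DMSO or Nutlin-3a for 1 h, with 2 replicates in each of these 5 groups. According to the study's text, H3K27ac of this line was profiled in cells treated with the auxin analogue before Nutlin-3a. Sample labels leave the treatment out, and peak names of the line carry the letters KD. Engineering of the line, degron treatment and any other difference between the cultures therefore cannot be told apart in a comparison of the lines. H3K4me1 was measured only in WT, with 2 replicates at each of the 3 times. The labels number the replicates without naming what was separate between them, so p-values measure the spread between these samples only.

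H3K27ac, the acetylation of lysine 27 on histone H3, marks active promoters and enhancers. H3K4me1 marks enhancers in a primed or active state and the flanks of active promoters, and a promoter built on a CpG island can carry acetylation with little H3K4me1 at its centre. RAD21 is a subunit of cohesin, the ring complex that extrudes chromatin loops and is halted at CTCF sites, and enhancers may act on a promoter through such loops.

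Sequences around the summits of some of the strongest members are shown as examples of promoter and distal members. The windows of 300 bp below are on the plus strand of GRCh37 and belong to the strongest members by mean percentile, 4 of the RAD21-only set and 2 of the WT-only set (W1 and W4). Each CpG dinucleotide is in capitals, since dense CpG marks promoter islands.
R1 (promoter of ENSG00000286098, chr19:12098582-12098881): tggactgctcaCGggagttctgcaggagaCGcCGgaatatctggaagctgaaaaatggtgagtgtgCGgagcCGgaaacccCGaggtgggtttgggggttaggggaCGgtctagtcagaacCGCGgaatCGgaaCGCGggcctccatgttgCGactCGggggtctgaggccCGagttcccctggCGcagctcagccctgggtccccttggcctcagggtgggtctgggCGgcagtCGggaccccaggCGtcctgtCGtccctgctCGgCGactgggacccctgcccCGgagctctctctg
R2 (chromosome 14, far from coding genes, chr14:40816861-40817160): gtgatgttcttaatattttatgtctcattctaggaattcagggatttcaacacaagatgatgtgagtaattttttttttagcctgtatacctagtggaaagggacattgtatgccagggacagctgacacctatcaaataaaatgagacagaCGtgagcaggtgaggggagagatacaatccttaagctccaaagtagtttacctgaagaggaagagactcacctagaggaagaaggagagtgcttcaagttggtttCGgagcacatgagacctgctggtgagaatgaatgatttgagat
R3 (promoter of ZNF20, chr19:12250780-12251079): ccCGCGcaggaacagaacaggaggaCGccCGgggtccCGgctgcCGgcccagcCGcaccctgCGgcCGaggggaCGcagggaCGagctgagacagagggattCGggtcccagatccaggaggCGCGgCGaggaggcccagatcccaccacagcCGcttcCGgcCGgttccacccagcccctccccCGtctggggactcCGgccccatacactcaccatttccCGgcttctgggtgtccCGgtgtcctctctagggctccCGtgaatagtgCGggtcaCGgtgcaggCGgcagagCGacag
R4 (promoter of ZNF426, chr19:9649050-9649349): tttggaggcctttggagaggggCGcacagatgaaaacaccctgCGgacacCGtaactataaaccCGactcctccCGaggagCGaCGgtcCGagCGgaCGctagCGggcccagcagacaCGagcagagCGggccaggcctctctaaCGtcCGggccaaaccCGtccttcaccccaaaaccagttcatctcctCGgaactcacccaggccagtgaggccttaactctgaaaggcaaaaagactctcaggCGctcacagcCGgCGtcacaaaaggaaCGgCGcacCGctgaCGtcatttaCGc
W1 (nearest gene PIK3R1, chr5:67069751-67070050): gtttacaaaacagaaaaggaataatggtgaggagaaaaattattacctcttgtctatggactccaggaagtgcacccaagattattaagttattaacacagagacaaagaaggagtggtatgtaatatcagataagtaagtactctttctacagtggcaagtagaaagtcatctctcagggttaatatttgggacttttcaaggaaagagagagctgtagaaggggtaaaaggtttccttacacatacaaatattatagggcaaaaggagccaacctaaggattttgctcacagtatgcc
W4 (promoter of ITGBL1, chr13:102102138-102102437): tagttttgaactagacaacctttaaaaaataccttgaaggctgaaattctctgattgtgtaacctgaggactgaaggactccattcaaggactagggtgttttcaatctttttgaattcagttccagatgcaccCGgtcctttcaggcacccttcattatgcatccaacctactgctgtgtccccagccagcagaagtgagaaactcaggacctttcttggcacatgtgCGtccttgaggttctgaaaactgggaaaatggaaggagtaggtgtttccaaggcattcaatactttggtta
R1, R3 and R4 held 23, 27 and 25 CpG dinucleotides in 300 bp, and R2 held 2. The region of R2 overlaps a promoter of a non-coding gene, which its label leaves out, and is counted among the promoters. W1 and W4 held 0 and 2. Dense CpG was thus seen in the windows of R1, R3 and R4, all of them regions at promoters of coding genes, and in neither of these WT-only windows. The labels name a promoter that the whole region overlaps. The window around the summit of W4 need not lie in the ITGBL1 promoter, so it is not read as promoter sequence. Over whole sets the base content was close, with a median of 4 CpG dinucleotides for RAD21-only and 3 for WT-only windows and a median GC content of 50.2% and 47.2%, against 5 and 52.3% over all merged regions.

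The lists differed in a way that partly follows the lines. Peak names in 7 lists carry the word input, namely all 4 of the RAD21 line and 3 of WT (1 h replicate 2 and both at 10 h). The other 3 WT lists (both at 0 h and 1 h replicate 1) lack it and held 31640 to 33976 peaks, against 40851 to 49127 in the other WT lists and 39092 to 43417 in the RAD21 line. They covered 30.7 to 31.9 Mb, against 59.5 to 66.6 Mb in the other WT lists and 49.1 to 64.1 Mb in the RAD21 line. Mitochondrial peaks numbered 4, 3 and 3 in them and 0 in each other list. At regions called in all 10 lists their median fold enrichment was 6.77 to 7.28, against 17.1 to 19.2 and 15.4 to 36.1. Whether they were called without a control cannot be told from the lists. Peak names of the RAD21 line at 0 h, replicate 2, carry the numbers of 2 replicates. The lists hold no read counts, so depth was not used. Each WT library called H3K27ac at the promoters of EPCAM, KRT8, KRT18, CDH1 and CDX2, epithelial and intestinal genes, as did each library of the RAD21 line. VIL1 and KRT20 were called in 0 of 10 lists, and so were the blood, endothelial and fibroblast genes PTPRC, CD3E, CDH5, COL1A1, COL1A2 and DCN. The promoter of RAD21 itself was called in all 10 lists, at percentile 87.4 to 96.7 of its list, and the nearest member lay 10016071 bp away. A region at the promoter of PPP1R12C, a gene whose intron is a common landing site for transgenes, ranked at percentile 74.9 to 89.5 in the WT lists and at 99.7 to 99.9 in the RAD21 line.

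Both sets consisted mainly of peaks weaker than those of other regions called throughout a line. Strength was measured as the percentile of a peak's −log10 p-value within its own list, from 0 for the weakest peak to 100 for the strongest. The mean percentile of the RAD21-only regions over their 4 lists had a median of 36.3 and ran from 3.76 to 68.8, and that of the WT-only regions over 6 lists had a median of 41.1 and ran from 13.2 to 74.0. Regions called in all 4 RAD21-line lists had a median of 70.1, those called in all 6 WT lists 72.8, and all merged regions 26.3. Only 24 of 158 RAD21-only and 44 of 186 WT-only regions reached a mean percentile of 50. The median widths of the sets were 1084 bp and 1254 bp, between the 636 bp of all merged regions and the 2342 bp of regions called in all 4 RAD21-line lists. By list, the median percentile of RAD21-only regions was 42.3 and 45.9 at 0 h and 35.6 and 34.9 at 1 h. For WT-only regions it was 35.8 and 34 at 0 h, 30.5 and 48.4 at 1 h, and 56.2 and 54.6 at 10 h. The 3 WT lists named without input lay between 30.5 and 35.8 and the 3 named with it between 48.4 and 56.2. Regions called in all 10 lists also had higher medians in the WT lists named with input. Their medians were 71.0 and 70.1 at 0 h, 69.3 and 76.5 at 1 h, and 80.5 and 79.5 at 10 h.

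The edges of the rule lay close to the members. The 2 weakest RAD21-only regions, judged by their highest −log10 q-value over the lists, were chr17:46136867-46137514 near NFE2L1 (2.69) and chr17:79428801-79429778 near ACTG1 (3.15). The weakest WT-only regions were chr8:140962851-140964044 near KCNK9 (4.74) and chrX:41160210-41160910 near DDX3X (4.92). Among regions kept out by 1 call, those of highest mean percentile are given here. On the RAD21 side, chr22:25002247-25004629 near GGT1 was called in all 4 RAD21-line lists and in 1 WT list, at a −log10 q-value of 5.7, and chr1:52433440-52437754 near RAB3B in 1 WT list at 2.5. On the WT side, chr19:46242201-46243894 near MEIOSIN and chr4:17030994-17033506 near LDB2 were each called in 1 RAD21-line list, at 8.67 and 6.81. A single missing call kept 411 regions out of the RAD21-only set and 178 out of the WT-only set, and a single call in the other line kept out 254 and 161. Without WT 1 h replicate 2, the RAD21-only set held 247 regions. Leaving out 1 of its own lists gave 282 and 247 (0 h replicates 1 and 2) and 244 and 270 (1 h replicates 1 and 2). The WT-only set held 193 to 243 regions when any 1 list was left out.

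Few members of either set lay at promoters, as among all merged regions, and the WT-only regions lay further from coding genes than the RAD21-only regions. Promoters, from 1000 bp upstream to 200 bp downstream of a transcription start site, made up 27 of 158 RAD21-only regions (17.1%, 95% Wilson interval 12 to 23.7) and 26 of 186 WT-only regions (14%, 9.72 to 19.7). Among regions called in all 4 RAD21-line lists the share was 57.3%, among those called in all 6 WT lists 60.1%, and among all merged regions 19.7%. Introns held 97 RAD21-only regions (61.4%) and 83 WT-only regions (44.6%). Intergenic regions numbered 29 (18.4%, Wilson interval 13.1 to 25.1) and 70 (37.6%, 31 to 44.8), against 14.9% of all merged regions. The summit of a RAD21-only region lay at a median of 19769.5 bp from the nearest start site of a coding gene, and that of a WT-only region at 72177 bp. At least 100 kb separated 17 RAD21-only regions (10.8%) and 68 WT-only regions (36.6%) from any such start site. Regions called in all 4 RAD21-line lists and in all 6 WT lists had medians of 2554 bp and 814.5 bp. Among regions that overlap no promoter, the medians were 21123 bp for RAD21-only and 77215.5 bp for WT-only members. Those of such regions called in all 4 RAD21-line lists and in all 6 WT lists were 25138.5 bp and 30769.5 bp. The long distance and the intergenic share of the WT-only set depended on which lists defined it. With the 7 lists named with input alone, the WT-only set grew to 725 regions with a median distance of 27539 bp, and the RAD21-only set to 369 regions with 22748 bp. The order of the intergenic shares then turned round, to 27.9% for RAD21-only and 20.8% for WT-only regions. With peaks of −log10 q of at least 5 the medians were 77956 bp (80 regions) and 26198.5 bp (50 regions).

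**Figure D1:**
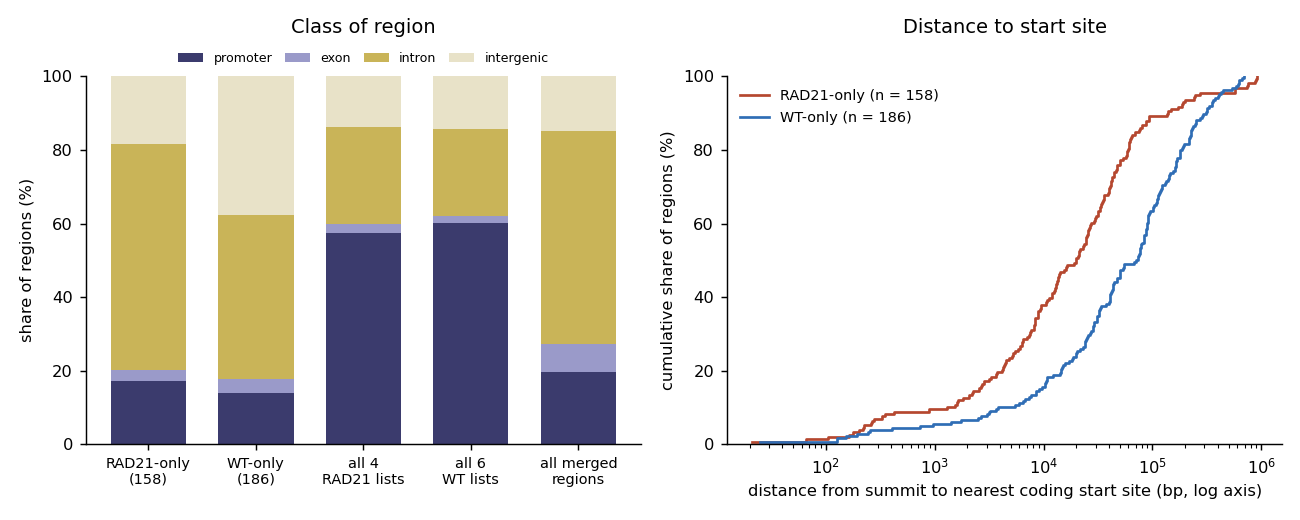
Share of regions in each class (left, stacked bars in percent, for both sets and 3 larger groups) and cumulative share of members by distance from the summit to the nearest coding start site (right, log axis in bp). The WT-only curve lies to the right of the RAD21-only curve over most of its length, with medians of 72177 bp and 19769.5 bp.

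The 8 strongest RAD21-only regions included 5 promoters of coding genes, 4 of them of zinc finger genes on chromosome 19. The strongest, R1 (chr19:12098384-12099865), lay at the promoter of ENSG00000286098, a coding gene with no name in the annotation, and of the antisense RNA ZNF433-AS1. It ranked at percentile 75.5 and 71.6 at 0 h and at 63.7 and 64.3 at 1 h. R2 (chr14:40816363-40817920) lay at a promoter of the non-coding gene ENSG00000286123, 915374 bp from FBXO33, the nearest coding gene. It ranked at 71.7 and 70.7 before treatment and at 64.3 and 67.1 after 1 h. Replicates of R1 and R2 lay within a few percentiles of each other at both times. R3 (chr19:12250498-12251597), at the promoter of ZNF20, ranked at 83.2 and 82.5 at 0 h and at 50.0 and 48.5 at 1 h. Its enrichment over the local background was 27.2-fold and 21.2-fold at 0 h and 7.52-fold and 7.5-fold at 1 h. R4 (chr19:9648715-9649934), at the promoter of ZNF426, had percentiles of 73.5 and 73.3 at 0 h and 58.6 and 57.1 at 1 h. In R1 to R4 and in R7 both 0 h lists ranked above both 1 h lists. R7 (chr19:57999031-57999882, ZNF419) and R8 (chr19:44645124-44646350, ZNF234) had mean percentiles of 63.9 and 62.5. R5 (chrX:96705149-96707967) and R6 (chr6:33791698-33793263) were distal, at 567532 bp from RPA4 and 20755 bp from MLN, the gene of the gut hormone motilin, with mean percentiles of 65.5 and 64.5.

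The 8 strongest WT-only regions included 2 promoters of coding genes. W1 (chr5:67068189-67071102) lay in an intron, 441668 bp from the start of PIK3R1, the regulatory subunit of phosphoinositide 3-kinase. It ranked at percentile 76.3 and 70.5 at 0 h, 57.7 and 71.9 at 1 h, and 84.6 and 82.9 at 10 h. The 10 h lists were the highest, and WT 1 h replicate 1 the lowest. W2 and W3 lay on chromosome 16 near NPIPA7 and NPIPA5 of the nuclear pore complex interacting protein family, which lies in segmental duplications. Of the 31-base words in their windows, 99.6% and 100% occur elsewhere in GRCh37, so the place that gave their reads is uncertain. W4 (chr13:102100797-102104503) lay at the promoter of ITGBL1, which codes for an integrin-like secreted protein. It ranked at 58.9 and 53.8 before Nutlin-3a, at 54.9 and 76.1 after 1 h and at 79.8 and 76.4 after 10 h, so the 3 lists named without input ranked it below the 3 named with it. A second WT-only region, W55 (chr13:102104909-102109238), overlapped the same promoter. W5 (chr6:31781439-31783072) covered the promoters of HSPA1A and HSPA1L, heat shock 70 genes with near-identical copies. Its mean percentile was 65.0, and a region called in the RAD21 line began 464 bp away. W6 near the potassium channel gene KCNC4 had a RAD21-line region 277 bp away and a mean percentile of 62.5. W7 near the calcium channel gene CACNA1H and W8 near EXO1, an exonuclease of mismatch repair, had mean percentiles of 60.9 and 60.7.

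**Figure D2:**
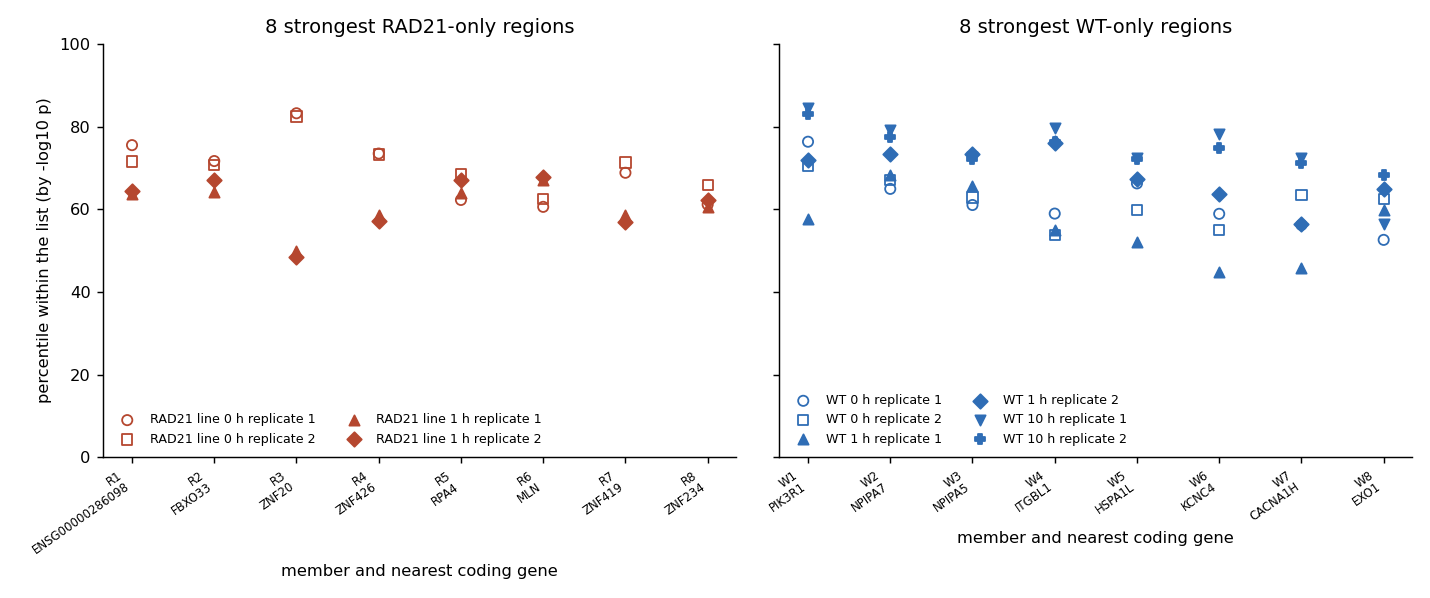
Percentile of each of the 8 strongest RAD21-only (left) and WT-only (right) regions within each list that called them, with 1 symbol shape per list, open for 0 h and filled for Nutlin-3a. In R1 to R4 and R7 both 0 h lists rank above both 1 h lists, and a WT 10 h list gives the highest percentile of each WT-only region shown but W3. Among WT lists, the 10 h lists also gave the highest median percentiles (80.5 and 79.5) of regions called in all 10 lists.

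Coding promoters in the RAD21-only set belonged in large part to zinc finger genes. Of 15 regions at coding promoters, 6 lay at genes named ZNF, which code for C2H2 zinc finger proteins, mostly repressors of transcription. They were ZNF20, ZNF426, ZNF419, ZNF234, ZNF595 on chromosome 4 and ZNF502 on chromosome 3, with mean percentiles of 58.9 to 66.0. That is 40% of the coding promoters in the set, where 377 of 11082 coding promoter regions called in all 4 RAD21-line lists (3.40%) lay at genes named ZNF or ZFP. None of the 6 had an H3K4me1 peak in any of the 6 WT libraries, and the nearest region called in a WT list lay 22039 to 412727 bp away. The other named genes were GAS7, a growth arrest-specific gene, the kinase gene DYRK1B, RNF227, the neural adhesion gene CNTN1, CIBAR2, the adenylyl cyclase gene ADCY5, FAM221A and DBNDD1. Their regions had mean percentiles of 22.9 to 52.2, below those of the 6 ZNF promoters. In the WT-only set, 11 regions lay at coding promoters and 0 of them at a ZNF or ZFP gene. Beside ITGBL1 and HSPA1A with HSPA1L they included those of PRKAA2, a catalytic subunit of AMP-activated kinase (58.9), GPR176, an orphan G protein-coupled receptor (57.9), the initiator caspase CASP10 (43.0), SRGAP3, SATB1, an organiser of chromatin (29.0), PELI2 and GSDMC, a gasdermin (21.1). Numbers in parentheses are mean percentiles. The ZNF list was made after these values were seen. The number changed little as the RAD21-only set grew, so the share fell. It was 6 of 158 regions here, 7 of 369 (1.9%) with lists named with input alone, 10 of 4631 (0.216%) with 0 h lists alone and 8 of 2831 (0.283%) with 1 h lists alone. In the WT-only set these choices gave 0, 0 and 1 regions.

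H3K4me1 in WT was present at nearly all WT-only regions, and at 22.2% of the RAD21-only regions no WT library had it. The 6 WT libraries gave shares of 75.3% and 71.5% at 0 h, 75.3% and 71.5% at 1 h, and 72.2% and 71.5% at 10 h for the RAD21-only set (mean 72.9% ± 1.9, SD, n = 6). For the WT-only set they gave 98.4% and 97.8% at 0 h, 98.4% and 98.4% at 1 h, and 97.8% and 97.3% at 10 h (mean 98.0% ± 0.439, SD, n = 6). The difference was −25.1 percentage points ± 1.66 (SD, n = 6 libraries), negative in 6 of 6. The exact two-sided sign-flip permutation p was 0.03125, the smallest that 6 libraries allow. All 6 libraries were read over the same regions, and any set difference larger than the spread between libraries gives this p, so it says nothing about the spread between regions. H3K4me1 was read in WT alone. There the rule asked for H3K27ac in every list of WT-only regions and in no list of RAD21-only regions. The sets were thus chosen unequally in the line that was read. Regions called in all 4 RAD21-line lists carried H3K4me1 in 97.6%, those called in all 6 WT lists in 99.4%, and all merged regions in 57.3%. The direction reversed when the 3 WT lists named without input were left out. With the 7 lists named with input alone, the shares were 84.2% ± 1.39 for RAD21-only and 72.4% ± 2.37 for WT-only (SD, n = 6), a difference of 11.8 points the other way, with the same exact permutation p of 0.03125. Without the WT 10 h lists it was −37.4 points, with 0 h lists alone −39.2 and with 1 h lists alone −7.73, each negative in 6 of 6 libraries.

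Most members had H3K4me1 in all 6 WT libraries or in none. H3K4me1 was found in all 6 WT libraries at 107 RAD21-only and 178 WT-only regions, and in none at 35 (22.2%) and 2 (1.08%). The remaining 16 RAD21-only and 6 WT-only regions had it in 1 to 5 libraries, among them R1, with 2. No library had it at 35.9% of all merged regions. The same was true of 1.49% of regions called in all 4 RAD21-line lists and 0.287% of those called in all 6 WT lists. The 2 WT-only regions without it included W3. No region of either set lacked H3K4me1 at 0 h and had it in both libraries at 1 h or at 10 h. Such regions were few throughout, 861 for 1 h and 990 for 10 h among all 87570 merged regions, so this is not read as a trait of the sets. At promoters the share was 52.5% ± 3.64 for RAD21-only (27 regions) and 100% for WT-only (26 regions). Promoters among all merged regions had 88.3%, and those called in all 4 RAD21-line lists 99.2%. Outside promoters the share was 77.1% ± 2.16 for RAD21-only and 97.7% ± 0.510 for WT-only (SD, n = 6). There it was 49.7% for all merged regions and 95.4% for those called in all 4 RAD21-line lists. Among the 35 RAD21-only regions with no H3K4me1, 11 were promoters, 17 lay in introns, 4 were intergenic and 3 exonic. It was missing from all 6 libraries at 11 of the 24 RAD21-only regions with a mean percentile of 50 or more and at 24 of the 134 below. Where RAD21-only regions did carry H3K4me1, its peaks had median percentiles of 64.1 to 72.8 in their lists, and at WT-only regions of 79.3 to 82.6.

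**Figure D3:**
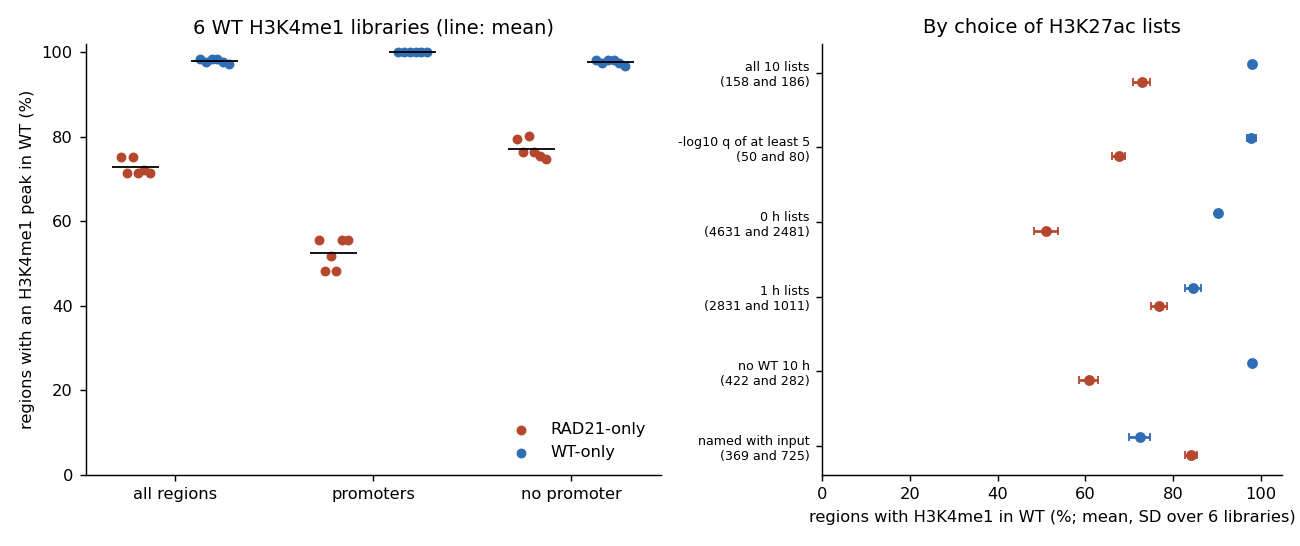
Share of members with an H3K4me1 peak in each of the 6 WT libraries (left, for all members, promoters and the rest, points in percent, line at the mean) and the mean share with SD when the sets are defined from other choices of H3K27ac lists (right, numbers of RAD21-only and WT-only regions in parentheses). WT-only regions lie above RAD21-only regions in all choices shown but the lists named with input, where the order is reversed (72.4% and 84.2%).

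The sets lay on different chromosomes in places. Chromosome 19, the most gene-rich and the home of large zinc finger clusters, held 17 of 158 RAD21-only regions (10.8%) and 0 of 186 WT-only regions, where it held 6.40% of the regions called in all 4 RAD21-line lists and 5.77% of those called in all 6 WT lists. Of the 17, 7 were promoters, 4 of them ZNF promoters, and 8 had no H3K4me1 in any WT library. Chromosome 17 held 7.59% of the RAD21-only and 1.61% of the WT-only regions, against 7.46% of all merged regions. Chromosome 9 held 3.8% and 9.68%, against 4.53%, and chromosome 13, which is gene-poor, 0.633% and 4.84%, against 1.79%. RAD21-only regions were thus near the background on chromosomes 17 and 9. The absence of WT-only regions from chromosome 19 did not remain with lists named with input alone, which gave 26 of 725 WT-only regions there (3.59%) and 26 of 369 RAD21-only regions (7.05%). With −log10 q of at least 5 the numbers were 0 of 80 and 7 of 50. Of the 18 WT-only regions on chromosome 9, 5 had at least 90% of their 31-base words repeated elsewhere in the genome, against 8 in the whole WT-only set.

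**Figure D4:**
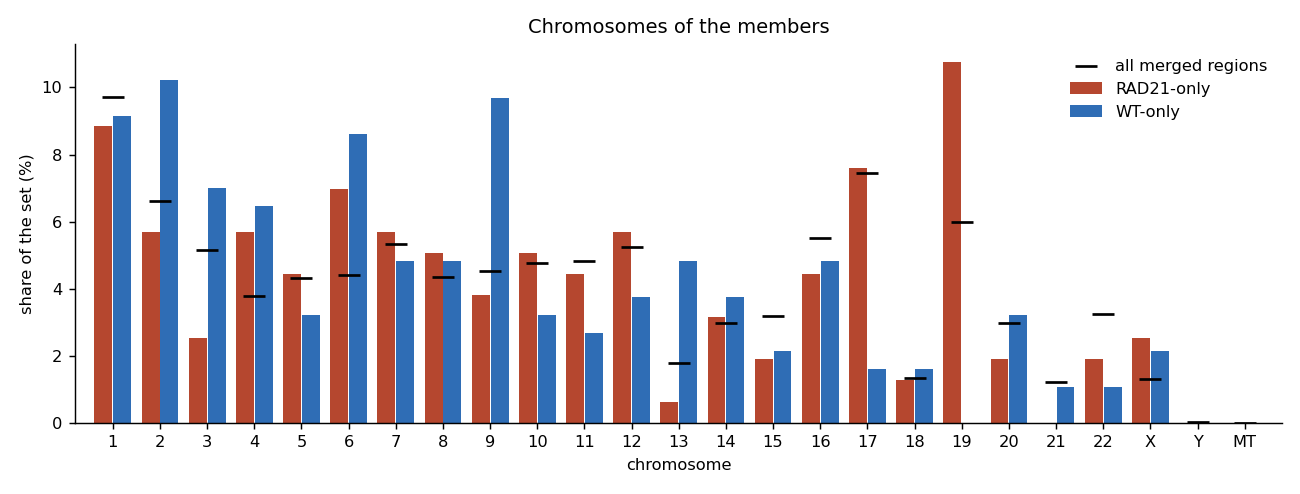
Share of each set on each chromosome (bars, percent of 158 RAD21-only and 186 WT-only regions) with the share of all merged regions as black marks. Chromosome 19 holds 10.8% of the RAD21-only and 0% of the WT-only set.

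A larger share of WT-only than of RAD21-only regions lay in clusters. Clusters of at least 3 members of a set, with at most 100 kb between neighbours, held 3 of 158 RAD21-only regions (1.9%) and 12 of 186 WT-only regions (6.45%). With gaps of up to 250 kb the shares were 1.9% and 10.8%. Clusters were not sought in sets defined from other choices of lists, so whether this order depends on the lists was not tested. The RAD21-only cluster, chr14:40781260-40817920, held R2, R25 and R86 in a stretch of 36.7 kb with no start site of a coding gene, and no WT list called a peak in it. R2 and R25 had H3K4me1 in none of the WT libraries and R86 in all 6. The 4 WT-only clusters lay in introns of or near PPFIBP1, a liprin (chr12:27707087-27728465), around the POU5F1 retrogene POU5F1B (chr8:128319147-128355066), upstream of the nuclear receptor gene NR5A2 (chr1:199701349-199745070) and more than 500 kb from IRS1, the insulin receptor substrate (chr2:226995119-227082538). Each held 3 members. In the PPFIBP1 cluster 0 of the 6 merged regions were called in the RAD21 line, at POU5F1B 1 of 6, near NR5A2 1 of 8 and near IRS1 5 of 12. All 12 members carried H3K4me1 in all 6 WT libraries. Among merged regions within 250 kb of a WT-only region, 1.69% were WT-only themselves (66 of 3906), and near RAD21-only regions 0.276% were RAD21-only (18 of 6517), against 0.212% and 0.180% of all merged regions.

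RAD21-only regions lay closer to regions called in the other line than WT-only regions did, but the other line had more lists for the RAD21-only set. The nearest region called in any WT list was at a median of 4463 bp from a RAD21-only region, and the nearest region called in any RAD21-line list was at 22592.5 bp from a WT-only region. Within 5 kb of such a region were 83 RAD21-only (52.5%) and 34 WT-only regions (18.3%). More lists were searched in WT than in the RAD21 line, and a further list can only shorten a gap. Gaps were not measured with equal numbers of lists or for other regions. The order is therefore not read as a trait of the sets. Regions called in all 10 lists near the members leaned the same way as the members. Their mean normal score, the within-list rank set on a normal scale, was compared as RAD21 line minus WT. Its median was 0.0457 for 278 regions within 50 kb of a RAD21-only region (56.8% higher in the RAD21 line) and −0.154 for 161 regions within 50 kb of a WT-only region (35.4% higher), against −0.0178 over all 18757 regions (47.8%). With the WT lists named with input alone the medians were 0.0316, −0.172 and −0.0141. This comes from the lists that chose the members and is given as a description.

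Few genes of the fixed lists lay near the members. Within 50 kb of a RAD21-only region lay the start sites of 270 of 20149 coding genes (1.34%), and of a WT-only region 129 (0.640%). With so few genes near either set, the absence of shared genes is not read as a result. GRIN1, a glutamate receptor subunit, was the 1 of 28 neuronal genes near a RAD21-only region. Near WT-only regions lay the interferon regulator IRF1 (1 of 32 genes of interferon and inflammation), TCF7L2, the transcription factor of Wnt signalling (1 of 24 Wnt targets), and the laminin gene LAMB1 (1 of 36 laminin, integrin and hemidesmosome genes). No gene lay near either set among 28 mesenchymal genes, 35 clustered protocadherins, 27 AP-1 and immediate early genes, 41 p53 targets and 15 genes of cohesin and CTCF. Genes named ZNF or ZFP, listed after values were seen, had 22 of 537 near RAD21-only regions (4.10%) and 0 near WT-only regions. The genes with most members within 50 kb were COL4A3 and COL4A4, basement membrane collagens that share a promoter, with 2 RAD21-only regions each, and POU5F1B with 3 WT-only regions, followed by ITGBL1, the sodium leak channel gene NALCN and PPFIBP1 with 2 each.

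TEAD and TCF/LEF motifs were found at a larger share of WT-only regions and HNF1 motifs at a larger share of RAD21-only regions, with Wilson intervals that overlap in each case. Motifs were searched as exact letters on both strands of the 300 bp around each summit, and a match describes the sequence only. The TEAD motif (ACATTCC) was in 3 RAD21-only windows (1.9%, Wilson interval 0.648 to 5.43) and 15 WT-only windows (8.06%, 4.95 to 12.9), against 3.51% of all merged regions. The TCF/LEF motif (CTTTGAT) was in 4 (2.53%, 0.989 to 6.33) and 13 (6.99%, 4.13 to 11.6), against 2.66%. The HNF1 motif (GTTAATNA) was in 9 (5.70%, 3.03 to 10.5) and 5 (2.69%, 1.15 to 6.14), against 1.80%. AP-1 (TGACTCA) was at similar shares, in 10.8% and 12.4% of the windows and in 7.79% of all merged regions. KLF/SP (GGGCGGG) was in 9.49% and 4.84%, against 10.2% of all merged regions. ETS (CCGGAAG) was in 3.8% and 1.08%, against 2.75% of all merged regions. The CTCF core (CNAGGNGGC) was in 6.96% and 7.53% and the decamer half-site of p53 in 5.70% and 8.06%, against 9.60% and 9.75% of all merged regions. In 200 bp windows the TEAD and TCF/LEF shares of WT-only regions were 4.84% and 2.69%. The other 10 of 18 motifs searched were in 0.633% to 23.4% of the RAD21-only and 0.538% to 26.9% of the WT-only windows, against 0.227% to 17.9% of all merged regions. At promoters the median number of CpG dinucleotides was 18 for RAD21-only and 6 for WT-only regions, where promoters called in all 4 RAD21-line lists had 26. At least 90% of the 31-base words were repeated in the genome for 7 RAD21-only (4.43%) and 8 WT-only regions (4.3%), against 2.37% and 2.33% of the regions called in all 4 and in all 6 lists. Of the 6 ZNF promoters, ZNF20, ZNF426 and ZNF234 had 1.48%, 0% and 1.85% of their words repeated, ZNF595 and ZNF502 5.93% and 0%, and ZNF419 35.9%.

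Change with Nutlin-3a within a line was tested. The rule did not use this change, but it drew on the same lists and asked for a call at each time. Regions that lost or gained the call with treatment could not enter, neither as members nor among all regions fitted. For each line, all regions called in all of its lists were ranked within each list by −log10 p-value, ranks were turned into normal scores, and limma compared the time points, so that a change of 1 is 1 SD of a list's scores. In the RAD21 line at 1 h, 4 of 158 RAD21-only regions ranked higher (2.53%) and 30 lower (19%) than before treatment by limma, at a p-value under 0.05 after Benjamini-Hochberg adjustment. Over all 22451 regions, 18.9% ranked higher and 16.7% lower. The median change was −0.260 for the members, with 51 of 158 positive, and 0.0329 over all regions. Median fold enrichment of the members was 4.825 and 4.093 at 0 h and 4.701 and 4.599 at 1 h. For regions called in all 10 lists it was 17.86 and 15.36 at 0 h and 28.83 and 36.07 at 1 h. The median peak width of these lists was 788 and 785 bp at 0 h and 1110 and 1169 bp at 1 h. A lower rank is thus relative to the other regions of a list, and is not read as a loss of H3K27ac. With all regions divided by mean score into 4 bins, most members lay in the lowest bin, where 9.76% of 5613 regions ranked higher and 9.51% lower, and where 4 of 141 members ranked higher and 23 lower. Across the bins the share of calls moved with rank, and the part of rank in the members' balance was not tested. The number ranked higher was 8 and 10 without RAD21-line 0 h replicates 1 and 2 and 2 without either 1 h list, and the number ranked lower was 21 to 35.

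The 3 members that ranked lower with the smallest p-values were a promoter and 2 intronic regions. R3 at ZNF20 changed by −1.43 ± 0.114 (SE, limma adjusted p-value 3.30e-06), from normal scores of 0.533 and 0.438 at 0 h to −0.925 and −0.955 at 1 h. R9, in an intron near the desmoglein gene DSG4, changed by −1.10 ± 0.140 (adjusted p-value 9.27e-05). R55, in an intron near RGS1, a regulator of G protein signalling, changed by −1.68 ± 0.237 (0.000200). Among the other coding promoters of the set, those of GAS7, ZNF426, DYRK1B, ZNF419, CIBAR2 and ENSG00000286098 also ranked lower, by changes of −1.40, −0.62, −1.0, −0.48, −1.14 and −0.36. Those of ZNF234, ZNF595, ZNF502, RNF227, CNTN1, ADCY5, FAM221A and DBNDD1 were called in neither direction. Calls over all coding promoters were not counted, so a lower rank is not read as a trait of the set's promoters. The 3 with the smallest p-values among those that rose lay in introns near GLIS3, a Krüppel-like zinc finger gene (R62, 1.82 ± 0.390, limma adjusted p-value 0.00328), the mitochondrial carrier gene SLC25A42 (R49, 1.39 ± 0.299, 0.00343) and RNF121 (R52, 0.95 ± 0.291, 0.0231). The replicates at 0 h were further apart in these than in R3, with scores of −2.90 and −1.44 for R62.

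In WT, smaller shares of the members than of all regions ranked higher or lower, at 1 h and at 10 h. At 1 h, 5 of 186 WT-only regions ranked higher (2.69%) and 13 lower (6.99%), where 9.05% and 9.74% of all 20532 regions did. At 10 h, 6 ranked higher (3.23%) and 2 lower (1.08%), where 4.63% and 3.22% of all regions did. Of the members, 167 lay in the lowest of 4 bins by mean score. In that bin of 5133 regions 5.44% ranked higher and 4.29% lower at 1 h, with 5 and 8 members. At 10 h the shares there were 4.81% and 1.99%, with 6 and 2 members. The balance of the members is thus not read as a trait of the set. Those with the smallest p-values that rose at 1 h were W57 near SMOC2, a calcium-binding matrix protein (1.25 ± 0.247, limma adjusted p-value 0.0114), W103 near NR5A2 (1.85 ± 0.443, 0.0216) and W55 at the ITGBL1 promoter (1.32 ± 0.320, 0.0227). W34 and W12 lay at promoters of non-coding genes. In W57 all 31-base words of the window are repeated in the genome. Those that fell at 1 h were W34 near ATF7IP, which codes for a partner of a histone methyltransferase (−1.35 ± 0.180, limma adjusted p-value 0.00367), W12 near CFAP46 (−1.04 ± 0.147, 0.00453) and W83 near the interferon gamma receptor gene IFNGR1 (−1.38 ± 0.248, 0.00872). At 10 h the rise was led by W124 near the monocarboxylate transporter gene SLC16A7 (2.10 ± 0.384, limma adjusted p-value 0.0189), W142 near BTG3 (1.97 ± 0.399, 0.0256) and W25 of the IRS1 cluster (0.81 ± 0.169, 0.0274). W25 and W55 ranked higher at both times, which share the 0 h lists. W49 near the Wnt receptor gene FZD1 (−0.80 ± 0.207, limma adjusted p-value 0.0472) and W53 near EN1 (−0.88 ± 0.228, 0.0485) ranked lower at 10 h. Both 0 h lists are named without input and both 10 h lists with it, so time and form of name cannot be told apart at 10 h without the 1 h pair. With the form of name as a term, which rests on that pair, 2 ranked higher and 1 lower at 10 h, and 5 and 18 at 1 h. Ranking by fold enrichment gave 0 calls in either direction at both times, with 23 and 37 members at an unadjusted p under 0.05. Without either 0 h list the calls fell to 0 in all 4 counts. Without 1 h replicate 1 or 2 they were 9 and 4 higher and 21 and 21 lower at 1 h, and 19 and 18 higher and 14 and 12 lower at 10 h. Without 10 h replicate 1 or 2 they were 1 and 1 higher and 5 and 5 lower at 1 h, and 0 at 10 h.

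**Figure D5:**
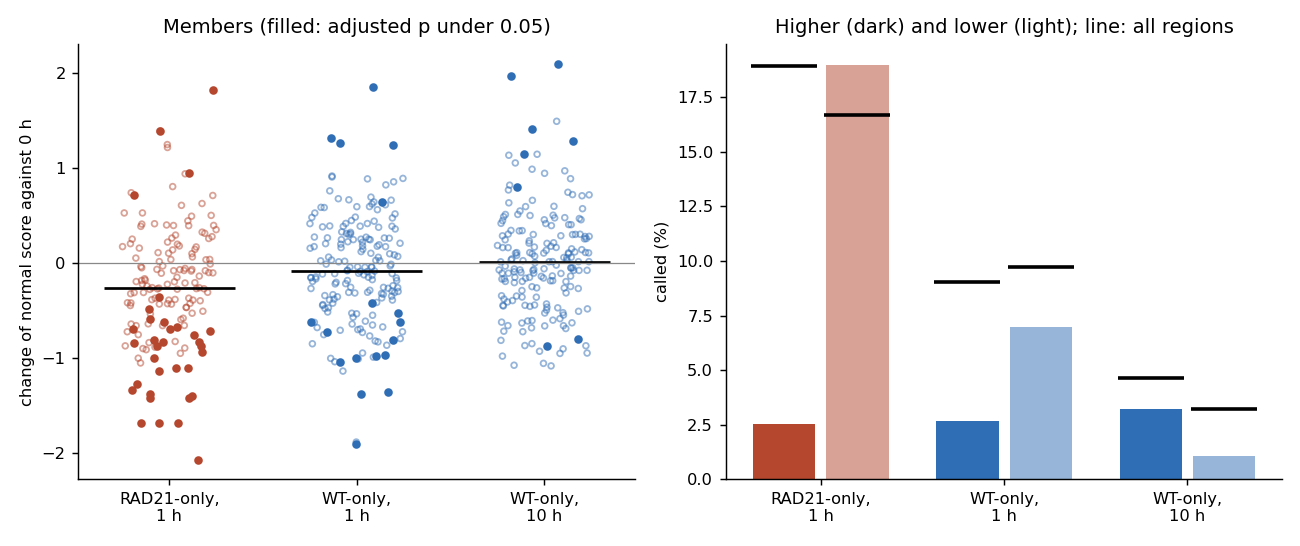
Change of normal score against 0 h for each member in its own line (left, filled points passed an adjusted p-value of 0.05, black line at the median) and percent of members called higher (dark bars) and lower (light bars), with the percent over all regions of the line as black lines (right). RAD21-only regions at 1 h show 2.53% higher and 19% lower, where all regions show 18.9% and 16.7%.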

How the data were processed

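Deposited peak lists of 16 ChIP-seq libraries were used, 10 for H3K27ac and 6 for H3K4me1, with 1 list per library. The 10 input libraries were not used here. According to the study's methods, reads were trimmed with Trim Galore 0.6.6, mapped to GRCh37 with Bowtie2 2.3.2 and filtered for quality, duplicates and blacklisted regions. MACS2 2.2.7.1 then called narrow H3K27ac peaks and broad H3K4me1 peaks against input. The fold enrichment of each peak is the authors' ratio over the local background, and the −log10 of its p-value and of its q-value were used as deposited. These depend on the depth and control of a library, so they were ranked or filtered only within a list. The lists give no counts, and no depth was used. Groups came from the sample titles.

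Peaks of the 10 H3K27ac lists were merged where they overlapped or touched. Overlap of 1 bp with a peak of a list counted as a call. Annotation was GENCODE release 44 lifted to GRCh37 (basic transcripts), where the study used Ensembl. Shares carry 95% Wilson intervals, which cover counting error only. The exact sign-flip permutation test over 6 libraries was two-sided. Rank changes were fitted with limma 3.58.1 in R 4.3.3 (lmFit, eBayes with a trend), 1 fit per line over all regions called in all of its lists, without covariates, and adjusted by Benjamini-Hochberg over all regions. Set calling and rank fits were tested on simulated data. Python 3.11.15, SciPy 1.17.1 and pysam 0.24.0 were used otherwise.

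The members, gene lists, motifs and naming rule were chosen with earlier results of these data known. Named were, in each set, the 8 members of highest mean percentile, the coding promoters, the largest clusters, the genes with most members within 50 kb, and in each rank contrast the 3 called members of smallest p-value per direction. Alternatives varied the threshold, merging, lists, promoter window, cluster gap, motif window and rank measure, and left out each list. Some members' genes and sequences are not reported here.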

Additional observations from a re-analysis of the deposited data

How the results depend on the processing

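The sizes of both sets followed the number of lists asked. RAD21-only and WT-only regions numbered 50 and 80 when presence needed a −log10 q of at least 5, 45 and 43 when it needed peaks over at least 50% of the region, 369 and 725 with lists named with input alone, 4631 and 2481 with 0 h lists alone, 2831 and 1011 with 1 h lists alone, and 422 and 282 without the WT 10 h lists. With 1 list left out they ran from 172 to 282 and from 193 to 243. Merging within 500 bp and leaving out Y and mitochondrial regions kept both within 1.5 times. The promoter share was 8.86% (RAD21-only) and 8.60% (WT-only) when the summit had to lie in the promoter, 31% and 20.4% with 2500 bp to either side, and 9.49% and 5.91% with coding genes alone. It was 24% for RAD21-only regions at a −log10 q of at least 5 and 7.59% for WT-only regions from lists named with input alone.

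The H3K4me1 difference kept its direction at the summit (−27.3 points), at an H3K4me1 −log10 q of at least 5 (−35.4) and without promoters (−20.6). It turned to 11.8 points for sets from lists named with input alone, an alternative chosen after seeing the data. Without 1 H3K4me1 library it ran from −25.6 to −24.8, with p of 0.0625, the smallest that 5 libraries allow. At a gap of 250 kb the share of WT-only regions in clusters rose from 6.45% to 10.8%, and that of RAD21-only regions was 1.9% at each gap.

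Counts of RAD21-only regions that ranked higher and lower at 1 h were 2 and 20 by fold enrichment and 1 and 14 of 50 at a −log10 q of at least 5, with 2 to 10 and 21 to 35 over single lists left out. For WT-only regions, ranking by fold gave 0 calls in all 4 counts. A −log10 q of at least 5 left 80 regions, with 1 and 9 calls for 1 h and 1 and 2 for 10 h. The form of name as a term gave 5 and 18 for 1 h, 2 and 1 for 10 h. Over single lists left out they ran from 0 to 9 and 0 to 21 at 1 h, and from 0 to 19 and 0 to 14 at 10 h. Replicate numbers did not mark pairs (correlations of deviations −0.036 to 0.023). A replicate block gave 5 and 31 in the RAD21 line, 4 and 11 in WT at 1 h, and 6 and 1 at 10 h. The causes of these changes were not tested. Peak lists without read counts limit all of these values to calls and ranks, so that a missing call cannot be told from weak signal.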
